A study of Mus musculus with 6 samples.

Results

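The genes described here are 10 markers of embryonal carcinoma and other pluripotent cells, picked by gene name from the 34745 genes of the expression table. They are the core pluripotency transcription factors Pou5f1, Sox2, Nanog, Sall4 and Utf1, the RNA regulators Lin28a, Lin28b, Trim71 and L1td1, and the Nodal co-receptor gene Tdgf1. Each name matched 1 row, and all 10 had enough counts to be tested. In the deposited coordinates, which match GRCm38, they lie at chr17:35506018-35510772 (Pou5f1), chr3:34650405-34652461 (Sox2), chr6:122707489-122714633 (Nanog) and chr7:139943789-139945112 (Utf1). Sall4 lies at chr2:168748332-168767943, and the others at chr4:134003330-134018841 (Lin28a), chr10:45376620-45470201 (Lin28b), chr9:114507133-114564369 (Trim71), chr4:98726734-98738480 (L1td1) and chr9:110939603-110946158 (Tdgf1). The libraries came from P19 cells, a mouse embryonal carcinoma line grown in α-MEM with fetal bovine serum. There were 3 libraries from cells treated with the peptide PDTLN1 and 3 from untreated control cells, with no genetic change labelled in either group, and the labels give no dose or duration. P19 is 1 line, and the labels do not state whether each library had its own culture, so p-values rest on differences among these libraries that may be technical. The comparison asks whether exposure to the peptide changed the expression of genes in these cells.

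In pluripotent cells Pou5f1 (also called Oct4) and Sox2 bind side by side on DNA at a composite element and, with Nanog, activate their own genes and each other's. Lin28a and Lin28b act at another level: they bind the precursors of let-7 microRNAs and block their maturation. Mature let-7, which builds up as cells differentiate, represses Lin28a, Lin28b and Trim71 through sites in their 3′ UTRs, so that Lin28 proteins and let-7 hold each other down. P19 cells are kept in this undifferentiated state in serum and leave it on retinoic acid or on aggregation with dimethyl sulfoxide.

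The let-7 family is recognised by the seed, bases 2 to 8 of the mature microRNA. The sequences below are from RefSeq (GRCm38.p6), written 5′ to 3′ with the seed in capitals, and show what the 3′ UTR sites pair with. The seed was the same in 10 of the 11 mature let-7 and miR-98 names in the table, and let-7j differed from it in its last base. The microRNAs themselves were not measured in these libraries.
let-7a-5p: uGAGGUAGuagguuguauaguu
let-7g-5p: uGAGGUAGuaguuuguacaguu
let-7j: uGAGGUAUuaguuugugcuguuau

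The 7 letters CTACCTC, which pair with that seed, were searched on the sense strand in the 3′ UTR of the longest complete coding transcript of each gene in GENCODE release M21 (GRCm38). They occurred in 8.84% of the 20966 protein-coding genes with a 3′ UTR and in 4 of the 10 genes. Lin28b and Trim71 each held 4 matches, Lin28a held 2 and Sall4 held 1. In Pou5f1, Sox2, Nanog, Utf1, L1td1 and Tdgf1 these letters were not found in that transcript. The 3′ UTRs of Trim71 (5512 bases) and Lin28b (4445 bases) were also the longest of the 10. The 8 matches followed by an A, the base opposite the first base of let-7, are shown because they are the form that let-7 represses most strongly. All lie on the minus strand and in the 3′ UTR, and the capitals mark the match.
Sall4 at chr2:168748934-168748961: gggctttaatttatCTACCTCaattatc
Lin28a at chr4:134005183-134005210: cacagcctgttgaaCTACCTCatttttg
Lin28a at chr4:134004545-134004572: agatcgccacaaacCTACCTCactgtgt
Lin28b at chr10:45381016-45381043: cccgggcgggaagtCTACCTCatgcaag
Trim71 at chr9:114512466-114512493: acattgcctaagtcCTACCTCagcttaa
Trim71 at chr9:114512370-114512397: gtgataatttctatCTACCTCaactctt
Trim71 at chr9:114509041-114509068: ttagtatggattttCTACCTCaattttg
Trim71 at chr9:114509015-114509042: tggcaaaaagttgtCTACCTCacgtcgg

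Promoters of 9 of the 10 genes were in the RefSeq table (GRCm38.p6), each 300 bases long from 250 before to 50 after an annotated start. They were searched on both strands for ATGCAAA, the core of the octamer bound by Oct4, and ACAATG, a core bound by Sox proteins. Of all 32851 promoters, 4.63% held the first, 12.6% the second and 0.813% both. Both were found in Nanog, where they lie next to each other as in the composite Oct4 and Sox2 element, and the octamer core alone in Sox2. These stretches are shown, with the cores in capitals, because Oct4 and Sox2 are known regulators of both genes. In Pou5f1, at its second start, and in Lin28a the Sox core alone was found, and in Utf1, Lin28b, Trim71, L1td1 and Tdgf1 neither.
Nanog at chr6:122707406-122707435, plus strand: cagcttctTTTGCATtACAATGtccatggt
Sox2 at chr3:34649885-34649914, plus strand: cgccccctttcATGCAAAaccctctggcga

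Total gene counts were 10381307 to 11663081 in the PDTLN1 libraries and 10450134 to 11177756 in the control libraries. The libraries did not fall apart by treatment along their main axis of variation. On the first principal component of log2 CPM, computed without the 10 genes and holding 35.0% of the variance, PDTLN1 libraries 1, 2 and 3 lay at -18.3, 23.5 and 11.7, and control libraries 1, 2 and 3 at 17.0, -14.2 and -19.7. Each library numbered 1 thus lay among the other group's libraries on this axis, which is why values without these libraries are given below. Levels in CPM are counts scaled to the size of each library, with TMM factors. The extraction text of the labels speaks of retinas, but none of the 10 retinal markers checked had enough counts to test. Crx and Arr3, which mark photoreceptors, had 0 counts in all 6 libraries, which allows up to 0.257 to 0.289 CPM (3 counts per library, counting error only). Nes, a marker of neural progenitors, and T, the mesoderm factor brachyury, averaged 291 and 164 CPM over the 6 libraries, here without TMM factors. No member of the 6 marker lists passed edgeR's threshold.

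All 10 genes, as markers of embryonal carcinoma cells, were detected in every library. On the scale of the deposited FPKM, which divides by gene length and allows levels to be compared between genes, Pou5f1 stood first, at 504.4 ± 30.8 FPKM in PDTLN1 libraries and 545 ± 12.4 FPKM in control libraries (SD, n = 3 each), and ranked 45 among all 34745 genes. Lin28a came next, at 203 ± 9.84 FPKM in PDTLN1 libraries and 204 ± 8.53 FPKM in control libraries. Its lowest library was above every library of the genes that follow, and its highest was below every library of Pou5f1.

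Tdgf1, at 100.4 ± 12.2 FPKM in PDTLN1 and 95.2 ± 13.0 FPKM in control libraries, and L1td1, at 91.8 ± 13.1 FPKM in PDTLN1 and 90.9 ± 10.3 FPKM in control libraries, overlapped each other. Below them, Utf1, Nanog, Lin28b, Sox2 and Trim71 formed a chain in which each gene's libraries overlapped those of the next, with means over all libraries of 53.5, 39.0, 37.4, 36.1 and 25.4 FPKM. Sall4 stood apart at the bottom, with libraries between 8.79 and 9.86 FPKM. The length behind the deposited FPKM was that of several transcripts together for some genes: 2682 bases for Pou5f1, 3860 for Tdgf1 and 6584 for L1td1, against 1362, 1932 and 2942 bases in their longest coding transcript. With those transcript lengths, a choice made after seeing the data, Tdgf1 and L1td1 exchanged places and the other 8 genes kept theirs.

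**Figure D1:**
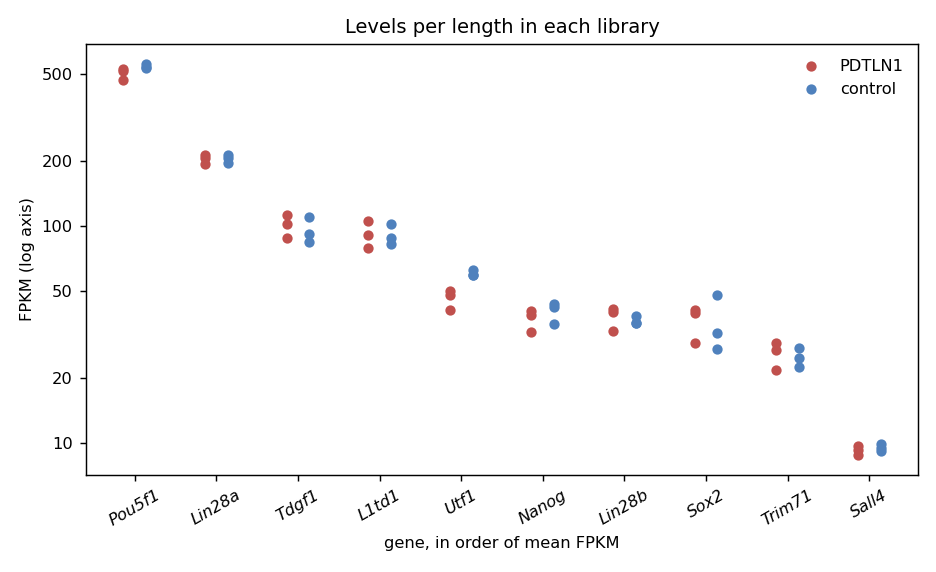
Deposited FPKM (log axis) of each gene in each library, PDTLN1 in red on the left of each pair and control in blue, with genes in order of their mean over 6 libraries. Pou5f1, Lin28a and Sall4 do not overlap their neighbours, while Utf1, Nanog, Lin28b, Sox2 and Trim71 overlap in a chain.

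None of the 10 genes passed the threshold between PDTLN1 and control. In edgeR's quasi-likelihood test, with p-values adjusted over all 13836 genes tested, 0 of 10 had an adjusted p under 0.05, where 3 genes in all (0.0217%) did, none of them lower. DESeq2 also called 0 of the 10, and 0.0723% of all genes. At an unadjusted p under 0.05 edgeR gave 1 of the 10, Utf1, which was lower, against 3.99% of all genes (2.3% higher and 1.69% lower). The median log2 fold change was -0.00 for the 10, with 5 above 0 and 5 below, and -0.00 over all genes tested, with 6878 above 0 and 6958 below. Values of the PDTLN1 and control libraries did not overlap for 2 of the 10, Utf1 and Pou5f1, both lower after PDTLN1, against 9.79% of all tested genes in either direction, 4.81% higher and 4.98% lower.

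**Figure D2:**
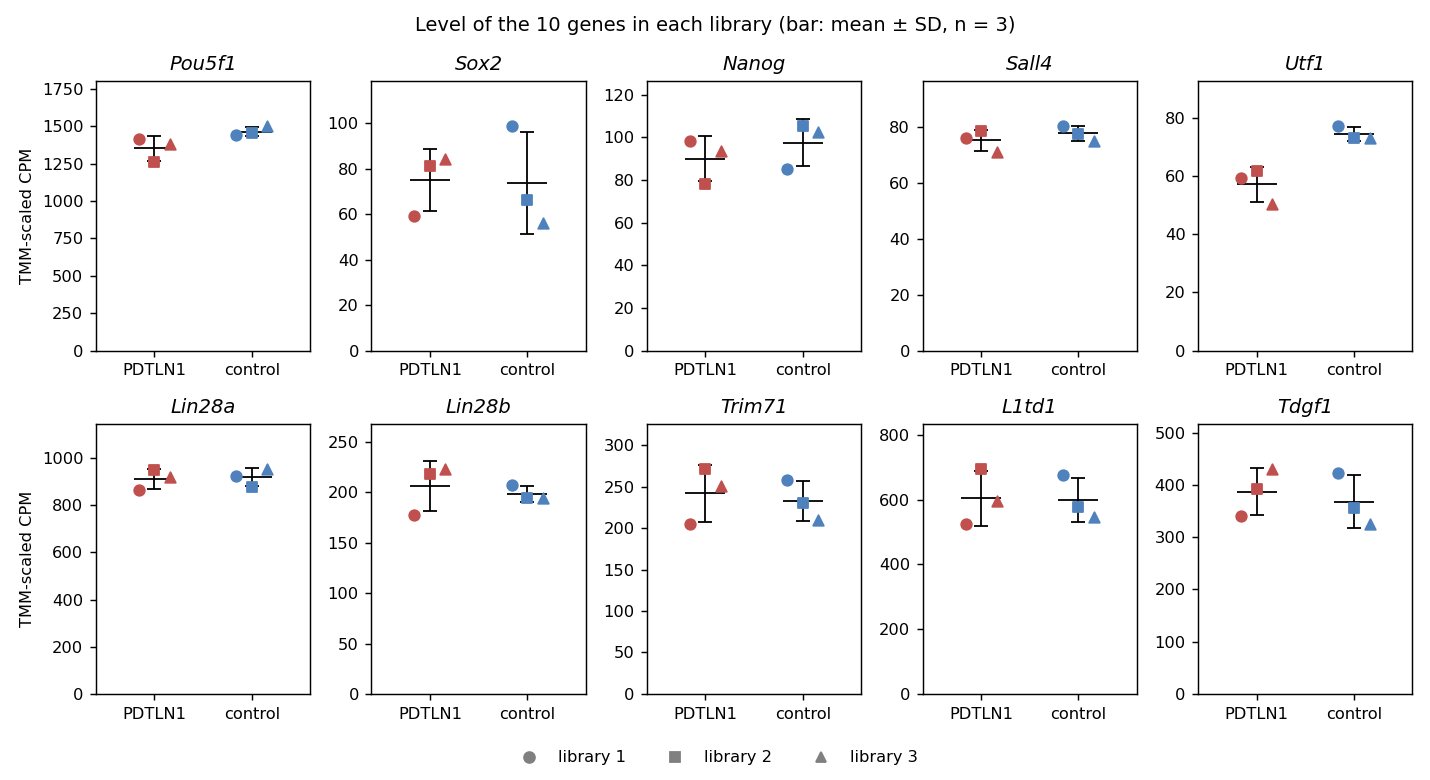
TMM-scaled CPM of each of the 10 genes in each library, PDTLN1 left and control right, with the library number as the marker shape and the mean ± SD (n = 3) as a bar; each axis starts at 0. Utf1 is at 50.2 to 61.8 CPM after PDTLN1 and 73.0 to 77.2 CPM in controls, and Pou5f1 is the other gene whose groups do not overlap.

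Among the transcription factors, Utf1 had the smallest p. Utf1, a chromatin-bound factor of undifferentiated cells and a direct target of Oct4 and Sox2, was at 59.3, 61.8 and 50.2 CPM in PDTLN1 libraries 1, 2 and 3, and at 77.2, 73.1 and 73.0 CPM in control libraries 1, 2 and 3. All 3 PDTLN1 libraries lay below all 3 controls, and the controls lay closer together. The means were 57.1 ± 6.09 CPM after PDTLN1 and 74.4 ± 2.38 CPM in controls (SD, n = 3 each). On the log2 scale this is a change of -0.38 (SE 0.09, 95% interval -0.59 to -0.17). The unadjusted p of 0.00248 ranked 26 among the 13836 genes, and edgeR's adjusted p was 0.989. Over the alternatives the log2 fold change lay between -0.44 and -0.30 and the adjusted p between 0.145 and 1.00. DESeq2 gave an adjusted p of 0.399. The 6 fibroblast and mesenchyme markers were all tested, with none at 0 and none called. Their sum was lower in each PDTLN1 library (63.6 to 78.4 CPM) than in any control library (81.6 to 86.7 CPM). Col1a1, at 39.3 CPM on average, was the most abundant of them, and Postn went the other way (log2 fold change 0.10). Sums of the other marker lists overlapped between the groups. These sums and the average of Col1a1 used CPM without TMM factors. On TMM-scaled CPM, 4.98% of all tested genes were lower without overlap, a share of single genes and not of sums. Of the fibroblast markers taken singly, Thy1 was lower without overlap, and the others, Col1a1 among them, overlapped between the groups. Whether the fibroblast sum has a part in the value of Utf1 was not tested. In bulk RNA, fewer cells with a transcript and less of it per cell cannot be told apart.

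Pou5f1, the POU-domain factor at the head of the network, was at 1417, 1259 and 1384 CPM in PDTLN1 libraries 1, 2 and 3, and at 1441, 1451 and 1502 CPM in control libraries 1, 2 and 3. The highest PDTLN1 library came within 2% of the lowest control. The log2 fold change was -0.11 (SE 0.06) with a 95% interval of -0.25 to 0.02, which spans folds of 0.844 to 1.01, and edgeR's adjusted p was 0.989. The value was -0.06 without PDTLN1 library 2, the lowest of the 6.

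Sox2, the HMG-box partner of Oct4, was the most variable of the 10. It was at 59.4, 81.4 and 84.5 CPM in PDTLN1 libraries 1, 2 and 3, and at 98.9, 66.5 and 56.0 CPM in control libraries 1, 2 and 3. Both the highest and the lowest library were controls, and the libraries numbered 1 lay on the far side of their own group. The log2 fold change was 0.03 (SE 0.24) with a 95% interval of -0.54 to 0.59, the widest of the 10. Changes anywhere within that range are compatible with these values. Sox2 lies inside Sox2ot, a long noncoding gene on chromosome 3, but that row had 4 to 13 counts in any library, against 614 or more for Sox2.

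Nanog, a homeobox factor, was at 98.5, 78.2 and 93.6 CPM in PDTLN1 libraries 1, 2 and 3, and at 85.0, 105.4 and 102.4 CPM in control libraries 1, 2 and 3. Control library 1 and PDTLN1 library 2, high for Sox2, were the 2 lowest for Nanog. Its log2 fold change was -0.12 with a 95% interval of -0.37 to 0.13. The value depended on single libraries: leaving out PDTLN1 library 2 gave -0.02, and leaving out control library 3, 2 or 1 gave -0.08, -0.06 or -0.21. Leaving out PDTLN1 library 1 gave -0.19. The 2 Nanog pseudogenes in the table had between 0 and 3 counts per library.

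Sall4, a zinc finger factor that binds with Oct4 and Nanog, was at 76.4, 78.6 and 71.3 CPM in PDTLN1 libraries 1, 2 and 3, and at 80.5, 77.8 and 75.2 CPM in control libraries 1, 2 and 3. These 6 values spread by a coefficient of variation (CV) of 4.17%, close to the 3.45% that counting alone gives at this depth. The log2 fold change was -0.05 with a 95% interval of -0.21 to 0.12, and it was -0.0059 without PDTLN1 library 3, the lowest of the 6, and -0.02 without control library 1, the highest.

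Of the RNA regulators, Lin28a varied least. It was at 866, 948 and 920 CPM in PDTLN1 libraries 1, 2 and 3, and at 925, 877 and 953 CPM in control libraries 1, 2 and 3. The groups overlapped over nearly their whole range, and the log2 fold change of -0.01 had the narrowest 95% interval of the 10, -0.14 to 0.12, or folds of 0.908 to 1.08. Rows that overlap Pou5f1, Sall4, Lin28a or Trim71 in position had 3 counts or fewer in each library.

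Lin28b, its paralogue, was at 178, 218 and 223 CPM in PDTLN1 libraries 1, 2 and 3, and at 208, 194 and 194 CPM in control libraries 1, 2 and 3. PDTLN1 libraries held both the lowest and the highest values. The log2 fold change was 0.06 with a 95% interval of -0.14 to 0.25. Per length, Lin28a exceeded Lin28b by 5.85-, 5.23- and 4.96-fold in PDTLN1 libraries 1, 2 and 3, and by 5.36-, 5.44- and 5.91-fold in control libraries 1, 2 and 3, so the ratio of the paralogues overlapped between the groups.

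Trim71, an RNA-binding ubiquitin ligase homologous to the worm gene lin-41 and a classical let-7 target, was at 204 CPM in PDTLN1 library 1, 271 in library 2 and 250.3 in library 3. In control libraries 1, 2 and 3 it was at 258, 230.0 and 210.3 CPM. The log2 fold change was 0.06 with a 95% interval of -0.20 to 0.32. L1td1, an RNA-binding protein derived from a LINE-1 transposon that associates with LIN28 in human pluripotent cells, was at 525, 694 and 595 CPM in PDTLN1 libraries 1, 2 and 3, and at 677, 579 and 545 CPM in control libraries 1, 2 and 3. Its log2 fold change was 0.01 with a 95% interval of -0.26 to 0.28. For both genes PDTLN1 library 1 was the lowest of the 6 and PDTLN1 library 2 the highest.

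Tdgf1 encodes Cripto, the cell surface co-receptor through which Nodal reaches its activin receptors. It was at 339.9, 392 and 430.4 CPM in PDTLN1 libraries 1, 2 and 3, and at 424, 356 and 325 CPM in control libraries 1, 2 and 3. The groups overlapped, and the log2 fold change was 0.07 with a 95% interval of -0.19 to 0.34. The processed pseudogene Tdgf1-ps1, on chromosome 16 from 3730510 to 3731025, matched the Tdgf1 transcript at 98.8% of 512 aligned bases, with 6 mismatches.

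That pseudogene row had 648 to 863 counts in the PDTLN1 libraries and 655 to 802 counts in the control libraries, equal to 16.8% to 18.5% and 18.1% to 18.2% of the Tdgf1 counts. How reads that match both were assigned is not given in the sources used here, so the split between the rows is uncertain. With both rows summed, a choice made after seeing the data, the log2 fold change of Tdgf1 was 0.06 with a 95% interval of -0.20 to 0.32.

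**Figure D3:**
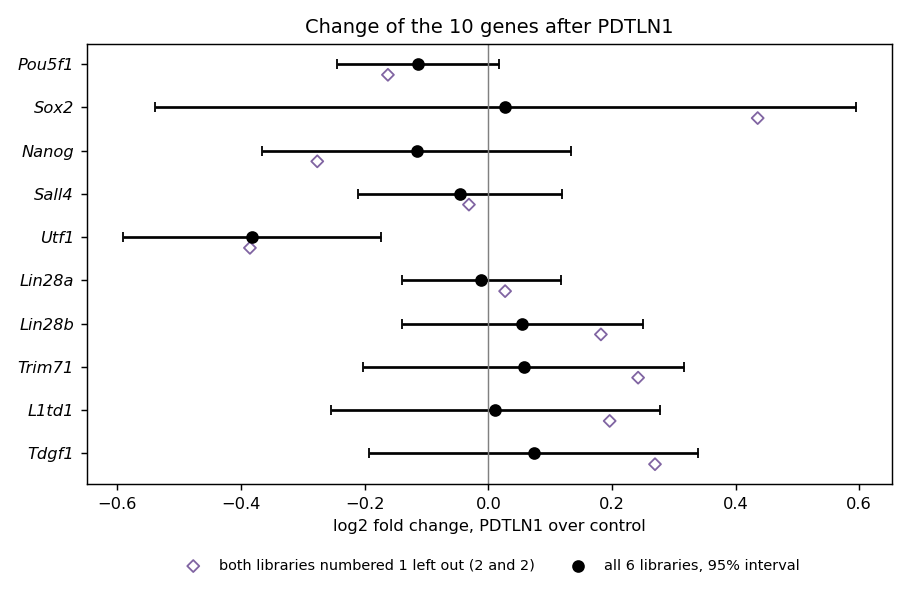
Log2 fold change of each gene, PDTLN1 over control, with its 95% interval from edgeR on all 6 libraries (black) and the value with both libraries numbered 1 left out (open diamonds). Only the interval of Utf1 lies wholly on 1 side of 0, and without the libraries numbered 1 Sox2 stands at 0.44 and Nanog at -0.28.

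The 10 genes differed from each other in how they varied between libraries, whatever the treatment. Sox2, Lin28b, Trim71, L1td1 and Tdgf1 had their 3 highest values in the same libraries, control 1, PDTLN1 2 and PDTLN1 3, and Nanog had its 3 lowest there. Over all tested genes, 14.02% had these 3 libraries highest and 14.4% had them lowest. They are also the libraries with positive scores on the first principal component. The highest library exceeded the lowest 1.76-fold for Sox2, 1.35-fold for Nanog and 1.25- to 1.33-fold for Lin28b, Trim71, L1td1 and Tdgf1. The median of this range was 1.18-fold over the 3845 tested genes at or above 65.8 CPM, the mean of the least abundant of the 10.

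Utf1, whose groups did not overlap, had the second widest range of the 10, 1.53-fold. Pou5f1, Sall4 and Lin28a varied less, with ranges of 1.19-, 1.13- and 1.10-fold. The CV over 6 libraries was 22.3% for Sox2 and 3.93% for Lin28a, where counting alone gives 3.50% and 0.998%. The ratio of partner factors varied with this spread: Pou5f1 exceeded Sox2 per length by 18.3-, 11.9- and 12.6-fold in PDTLN1 libraries 1, 2 and 3 and by 11.2-, 16.7- and 20.6-fold in control libraries 1, 2 and 3.

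**Figure D4:**
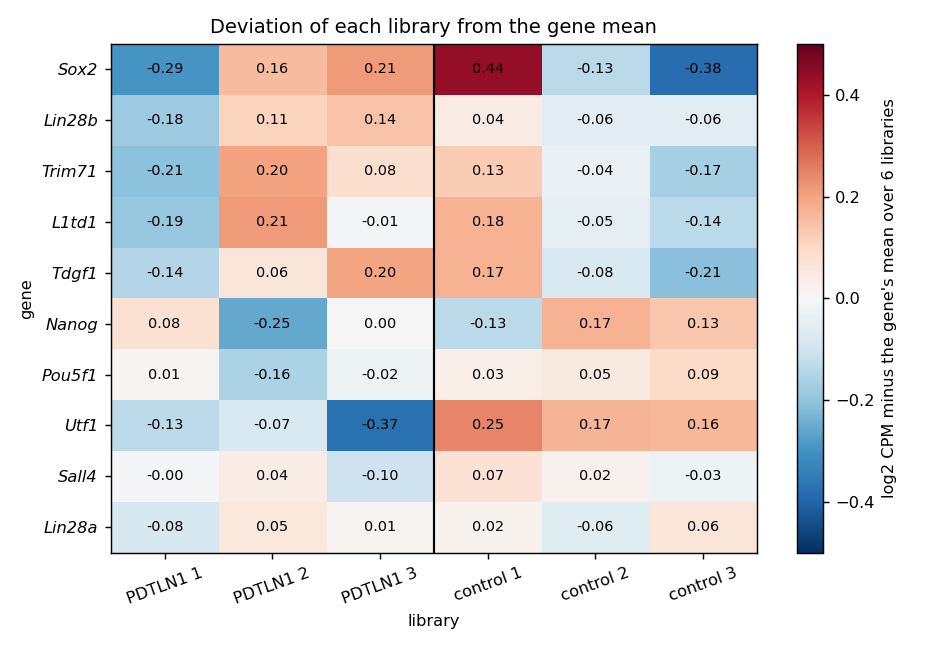
Log2 CPM of each gene in each library minus the gene's mean over the 6 libraries (PDTLN1 left of the black line, control right of it). Sox2, Lin28b, Trim71, L1td1 and Tdgf1 have their 3 highest values in control 1, PDTLN1 2 and PDTLN1 3, where Nanog has its 3 lowest.

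With both libraries numbered 1 left out, the log2 fold changes of those 5 genes moved upwards. They became 0.44 for Sox2, 0.27 for Tdgf1, 0.24 for Trim71, 0.20 for L1td1 and 0.18 for Lin28b. That direction follows from how the 5 were grouped: the PDTLN1 libraries left are among their 3 highest, and the controls left are not. Those of Nanog and Pou5f1 moved to -0.28 and -0.16, and that of Utf1 stayed at -0.39. In that fit of 2 PDTLN1 against 2 control libraries, edgeR called 0 of the 10 (lowest adjusted p 0.1002, for Sox2), against 91 of 13949 genes (0.652%), 0.358% higher and 0.294% lower. At an unadjusted p under 0.05 it gave 8 of the 10, 5 higher and 3 lower, against 17.4% of all genes, 8.95% higher and 8.47% lower. The groups left then lie on opposite sides of the first principal component, so that treatment and that component cannot be told apart there. The libraries numbered 1 were left out for their place on that component in these same data, so the counts describe that choice only. With the component as a covariate in the fit of all 6 libraries, the same 5 genes were at -0.13 (Sox2), -0.01 (Tdgf1), -0.04 (Trim71), -0.09 (L1td1) and -0.01 (Lin28b).

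The other genes of the network, in lists chosen with earlier results of these data known, gave no call either. Of 43 other pluripotency genes, 37 were tested, 19 above 0 and 18 below, and the median log2 fold change was 0.00. EdgeR and DESeq2 called 0 of them, and 3, all lower, had an unadjusted p below 0.05 in edgeR. Over all tested genes that share was 3.99%, with 2.3% higher and 1.69% lower, and it applies to the lists below as well. Nr0b1, an orphan nuclear receptor that represses Oct4 activity, averaged 16.9 CPM in PDTLN1 libraries and 23.1 CPM in control libraries, a log2 fold change of -0.45 without overlap (edgeR adjusted p 0.989). Thap11, a zinc finger factor of embryonic stem cells known as Ronin, had -0.19, and Dnmt3l, a cofactor of de novo DNA methylation, had -0.78 at 1.04 CPM in PDTLN1 and 1.79 CPM in control libraries.

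The most abundant of that list per length was Nacc1, a BTB-domain partner of Nanog, at 69.0 FPKM. The 6 genes of the list with too few counts to test, Zfp42, Dppa3, Dppa5a, Prdm14, Tcl1 and Fut4, averaged 0.222 FPKM or less over all libraries, against 9.40 FPKM for Sall4, the lowest of the 10.

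Genes around Lin28 and let-7 were also without a call by edgeR or DESeq2. Of 23 tested genes of let-7 processing and Lin28 cofactors, 13 lay above 0 and 10 below, with a median of 0.03, and 1 was at an unadjusted p under 0.05. It was Igf2bp2, an mRNA-binding protein and let-7 target, at 206, 212 and 196 CPM in PDTLN1 libraries and 179.8, 176 and 152 CPM in control libraries, a log2 fold change of 0.27 (edgeR adjusted p 0.989). Ago4 and Ago2, Argonaute proteins that carry microRNAs, had -0.61 and 0.20, with Ago4 at under 5 CPM in every library. Hnrnpa1, a binder of the let-7a precursor, was the most abundant per length at 294 FPKM, with -0.01.

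Of 29 tested let-7 targets, 20 lay above 0 and 9 below, with a median of 0.04 and 1 (Igf2bp2 again) at an unadjusted p below 0.05. Values of the groups did not overlap for 8, of which 5 were higher and 3 lower, against 9.79% of all tested genes in either direction. Of the 37 other pluripotency genes, 0 were higher and 3 lower without overlap. Of the 23 genes of let-7 processing and Lin28 cofactors, 2 were higher and 1 lower. In the Trim71, Nodal and family lists the groups overlapped for every tested gene. Hras, a small GTPase, had a log2 fold change of -0.30 (29.3 CPM in PDTLN1 and 36.0 CPM in control libraries), and Cdc25a, a cell cycle phosphatase, also had -0.30 (102 CPM in PDTLN1 and 126 CPM in control libraries). Igf2bp1 was the most abundant per length at 88.4 FPKM and stood at 0.04. Of the 7 Trim71 targets, all were tested and lay above 0, with a median of 0.09 and 0 at an unadjusted p under 0.05. The immediate early gene Egr1 had 0.77 with an SE of 0.51. It was at 36.6, 58.9 and 57.6 CPM in PDTLN1 libraries 1, 2 and 3, and at 52.4, 21.9 and 15.5 CPM in control libraries 1, 2 and 3. Its 3 highest libraries were those of Trim71, as they were for 14.02% of all tested genes. Rbl1, a relative of the retinoblastoma protein, had 0.08, and Ago2, which is in this list as well and its most abundant member per length, had the 0.20 given above.

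In the Nodal pathway that Cripto serves, 18 of 23 genes were tested, 14 above 0 and 4 below, with a median of 0.03. EdgeR and DESeq2 called 0, and 0 had an unadjusted p below 0.05. The Nodal inhibitors Lefty2 and Lefty1 had log2 fold changes of -0.31 and 0.21, and Eomes, a mesendoderm target, had 0.20. Hspa5, a chaperone that binds Cripto at the cell surface, was the most abundant per length at 101.5 FPKM, with 0.07. Cfc1, the second mouse gene of the Cripto family, was at 0.0143 FPKM and could not be tested, against 97.8 FPKM for Tdgf1.

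Relatives of the 10 genes by family gave 18 tested of 24, 15 above 0 and 3 below, with a median of 0.04. EdgeR and DESeq2 called 0 here too, and 0 had an unadjusted p below 0.05. Sox12, of the SoxC group, had -0.16, and Pou2f1 and Pou2f2, octamer-binding factors, had 0.19 and 0.46. Sox4 was the most abundant per length at 36.8 FPKM, and stood at 0.07. Pou3f4 was listed at 0 FPKM in all libraries.

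**Figure D5:**
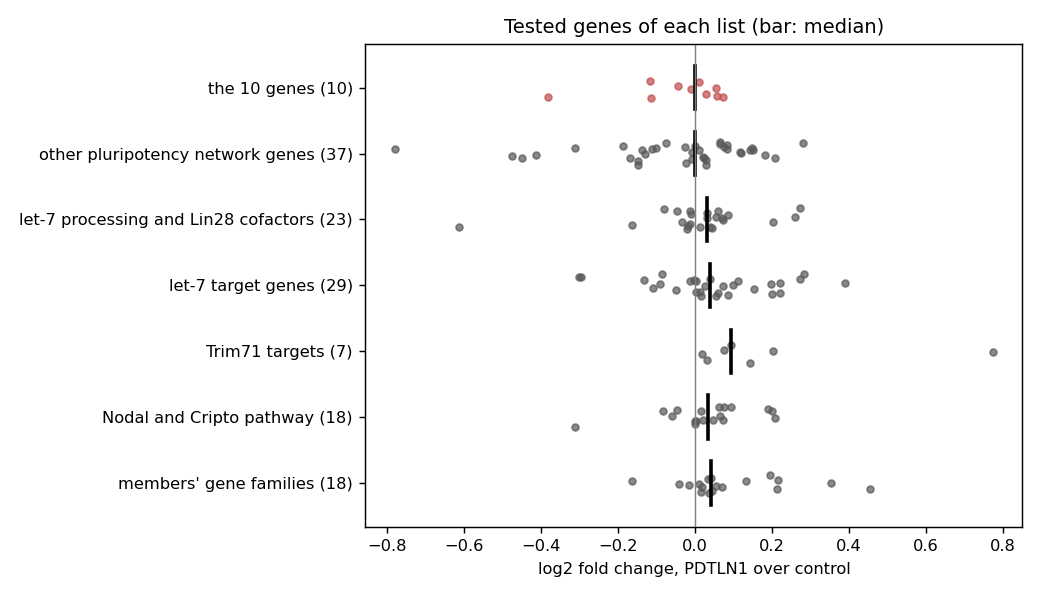
Log2 fold change, PDTLN1 over control, of each tested gene of the 10 (red) and of the 6 lists around them (grey; tested genes in brackets), with the median of each as a black bar and no meaning in the vertical scatter. The medians lie between -0.00 and 0.09, and no gene shown passed edgeR's threshold.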

How the data were processed

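Per the labels, libraries were made from total RNA with an Illumina TruSeq RNA kit. The table deposited by the authors holds raw counts per gene and FPKM (counts per gene length and library total) for each library, per the file headers. The length by which the authors' FPKM was scaled, worked out from both columns, varied by at most 0.0635% between libraries for the 15678 genes with counts throughout. The submitters' processing notes name Bowtie 0.12.2, mm8 and mm9 without a role, and the counter and the strand setting were not stated in the sources used here. Positions matched GENCODE M21 (GRCm38) exactly for 9 of the 10 genes and 80.8% of 34267 identifiers; the end of Lin28b differs.

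Groups follow the treatment label. Counts were fitted with edgeR 4.0.16 (R 4.3.3): filterByExpr, TMM, robust glmQLFit and glmQLFTest, two-sided, Benjamini-Hochberg over 13836 genes, threshold 0.05. Each SE was obtained from the log2 fold change and the F statistic, and 95% intervals use the t distribution. The fit was also run on simulated counts. These were drawn gene by gene without the shared variation along the first principal component, so that run says nothing about such variation. Principal components used log2 CPM (prior count 2). DESeq2 1.42.0 and the other alternatives are in the closing section.

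The 10 genes and the lists were chosen with earlier results of these data known. Named from each list are the 3 genes with the smallest p and the most abundant; other names were chosen after their values were seen.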

Additional observations from a re-analysis of the deposited data

How the results depend on the processing

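None of the 10 genes passed in any of the 141 combinations of gene and alternative. In 20 the sign of the log2 fold change turned, all of them for Sox2, Lin28a, Lin28b, Trim71, L1td1 and Tdgf1. With each library left out in turn, the ranges were -0.14 to 0.30 for Sox2, -0.042 to 0.024 for Lin28a, -0.0043 to 0.15 for Lin28b, -0.032 to 0.16 for Trim71, -0.10 to 0.11 for L1td1 and -0.0094 to 0.19 for Tdgf1. For the genes that kept their sign they were -0.15 to -0.06 for Pou5f1, -0.21 to -0.02 for Nanog, -0.077 to -0.0059 for Sall4 and -0.44 to -0.30 for Utf1. With the first principal component as a covariate, Sox2, Lin28b, Trim71, L1td1 and Tdgf1 stood at -0.13, -0.012, -0.044, -0.088 and -0.011, and without both libraries numbered 1 Lin28a stood at 0.027; the cause was not tested. The number of genes called among all tested was 3, and 2 to 13 with each library left out, 91 without both libraries numbered 1, 10 with the DESeq2 Wald test, 8 with no filter on low counts, 8 with the component as a covariate, and 2 and 3 at thresholds of 0.01 and 0.1. DESeq2 size factors, library size alone and a stricter filter on low counts (1 CPM in any 3 libraries, with 10 counts throughout 1 group) left 3. Without both libraries numbered 1, 1 of 7 listed Trim71 targets (Egr1, 1.64) and 2 of 24 listed family members (Sox11, 0.61, and Pou2f1, 0.42) were called, all higher. In that fit 0.652% of all genes were called, and treatment cannot be told apart from the first principal component. With all 6 libraries, edgeR's adjusted p was 0.989 for each of these genes. The lists had no other call. In the level order, 8 of 10 places held with transcript lengths. With the replicate number as a block, 1 gene in all was called. The labels do not say that the numbers mark a shared culture or day, so they were not taken to pair libraries. Deviations of same-numbered libraries correlated across genes at -0.36, -0.14 and -0.10. These values cannot decide on a shared culture, as the libraries numbered 1 lay on opposite sides of the first principal component. At this depth log2 fold changes had a median SE of 0.13, and counting gave a CV of 3.73% or less for each of the 10.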

Other observations

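As a description, the named gene whose log2 CPM followed each of the 10 most closely over the 6 libraries, among 9919 genes at 10 CPM or more, was Pkn3 for Pou5f1, Arhgap28 for Sox2, Bbs7 for Nanog, Ripk1 for Sall4, Mrps26 for Utf1, Phf6 for Lin28a, Spred1 for Lin28b, Acvr1 for Trim71, Cwf19l1 for L1td1 and Epg5 for Tdgf1. Pearson's r as a measure of likeness lay between 0.988 (Utf1) and 0.999 (L1td1). Each named gene is the highest of 9919 over only 6 values, so an r this high comes with the choice. The number of genes with an r above 0.95 was 202 for Trim71, 130 for L1td1, 110 for Sox2, 108 for Nanog and 91 for Tdgf1, against 13 for Utf1, 9 for Sall4 and 8 for Lin28a. All share the same 6 libraries. How many genes would exceed 0.95 by chance was not worked out, so these numbers do not show shared regulation.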
